A study of Rattus rattus with 18 samples.

Results

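The miR-132 and miR-212 cluster was represented on these arrays by 4 mature miRNAs, rno-miR-132-3p, rno-miR-132-5p, rno-miR-212-3p and rno-miR-212-5p, which are the 3p and 5p arms of both hairpins of the cluster. They were picked by name as the cluster's probes among the 761 rat miRNAs of the array. All 4 were found, and all 4 were among the 532 miRNAs tested, those above the detection limit on at least 3 of 18 arrays. No genome of this species and build was at hand, so that no genomic position is given.

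The arrays held brain tissue of 9 Sprague Dawley rats, 3 in each of 3 conditions. The controls were sham-operated, and the second group underwent transient middle cerebral artery occlusion (tMCAO), in which a filament blocks the artery and is then withdrawn. The third group is labelled remote limb postconditioning (PostC); the sources do not say whether these rats also had tMCAO, and which of the 2 times of sacrifice after reperfusion that the study's methods give for tMCAO applies to the arrays is not stated. Every rat gave an array of the ischemic core and an array of the tissue around it (peri). The sample labels call core temporo-parietal cortex and peri striatum, whereas the study's text places them the other way round, so the regions are named core and peri here. The miRNA of the neurons' list that is most typical of neurons, miR-124-3p, was above the limit on all 18 arrays, and the liver's miR-122-5p on 1. The other miRNAs listed for tissues outside the brain, miR-1-3p, miR-206-3p and miR-133a-3p, were above it on 9, 11 and 15.

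A miRNA hairpin is cut into a duplex, and whichever strand is loaded into Argonaute guides it to messenger RNAs that match the seed, the bases near its 5′ end. In both hairpins of the cluster the 3p strands are the usual guides and the 5p strands are the less abundant partners. The cluster is transcribed in neurons under the transcription factor CREB in response to synaptic activity and neurotrophins, and its 3p arms are known for shaping dendrites and synapses. The sample labels name no stimulation of neurons, so the cluster's dependence on activity was not tested.

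The target sequences that the array files give for the probes are printed because they tell which arms share a seed and how far the probes can be told apart. Capitals mark the seed, bases 2 to 8 from the 5′ end.
miR-132-3p: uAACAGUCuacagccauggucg
miR-212-3p: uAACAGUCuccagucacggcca
miR-132-5p: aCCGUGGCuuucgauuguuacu
miR-212-5p: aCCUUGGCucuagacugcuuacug

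Both 3p arms carried the seed AACAGUC, which no other miRNA of the 761 on the array had. They were identical at 17 of 22 positions, and counted from the 5′ end of miR-132-3p they differed by A10C, C14U, U17C, U20C and G22A, all outside the seed. The 5p arms had seeds of their own, CCGUGGC in miR-132-5p and CCUUGGC in miR-212-5p, and neither was found in another miRNA of the array. Over their first 22 bases the 5p arms were identical at 14, and the difference G4U lay inside the seed. The closest miRNA outside the cluster was 7 base edits away from miR-212-3p and 8 from each of the others. With 5 edits between the 3p arms and 6 between the 5p arms, hybridization of an arm to the probe of its relative was possible and was not tested.

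Levels below are normalized log2 intensities, on which a difference of 1 is a doubling, and each is the mean of 4 spots. Brightness differs between probes, so only the same probe is compared across arrays. The miR-132-3p, miR-212-3p and miR-212-5p probes were above the detection limit on all 18 arrays, and the miR-132-5p probe on 13. Their spread over the arrays differed as well, with an SD of 1.33 for miR-132-5p (place 18 of 532 from the widest), 0.59 for miR-212-3p, 0.42 for miR-132-3p and 0.34 for miR-212-5p.

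Some arrays stood apart from their group over all miRNAs. The core array of PostC rat 3 had a correlation as low as 0.831 with the other PostC core arrays, the peri array of the same rat reached at most 0.898 with its group, and the core array of sham rat 2 at most 0.899. Within the tMCAO groups, the lowest correlation was 0.932.

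**Figure D1:**
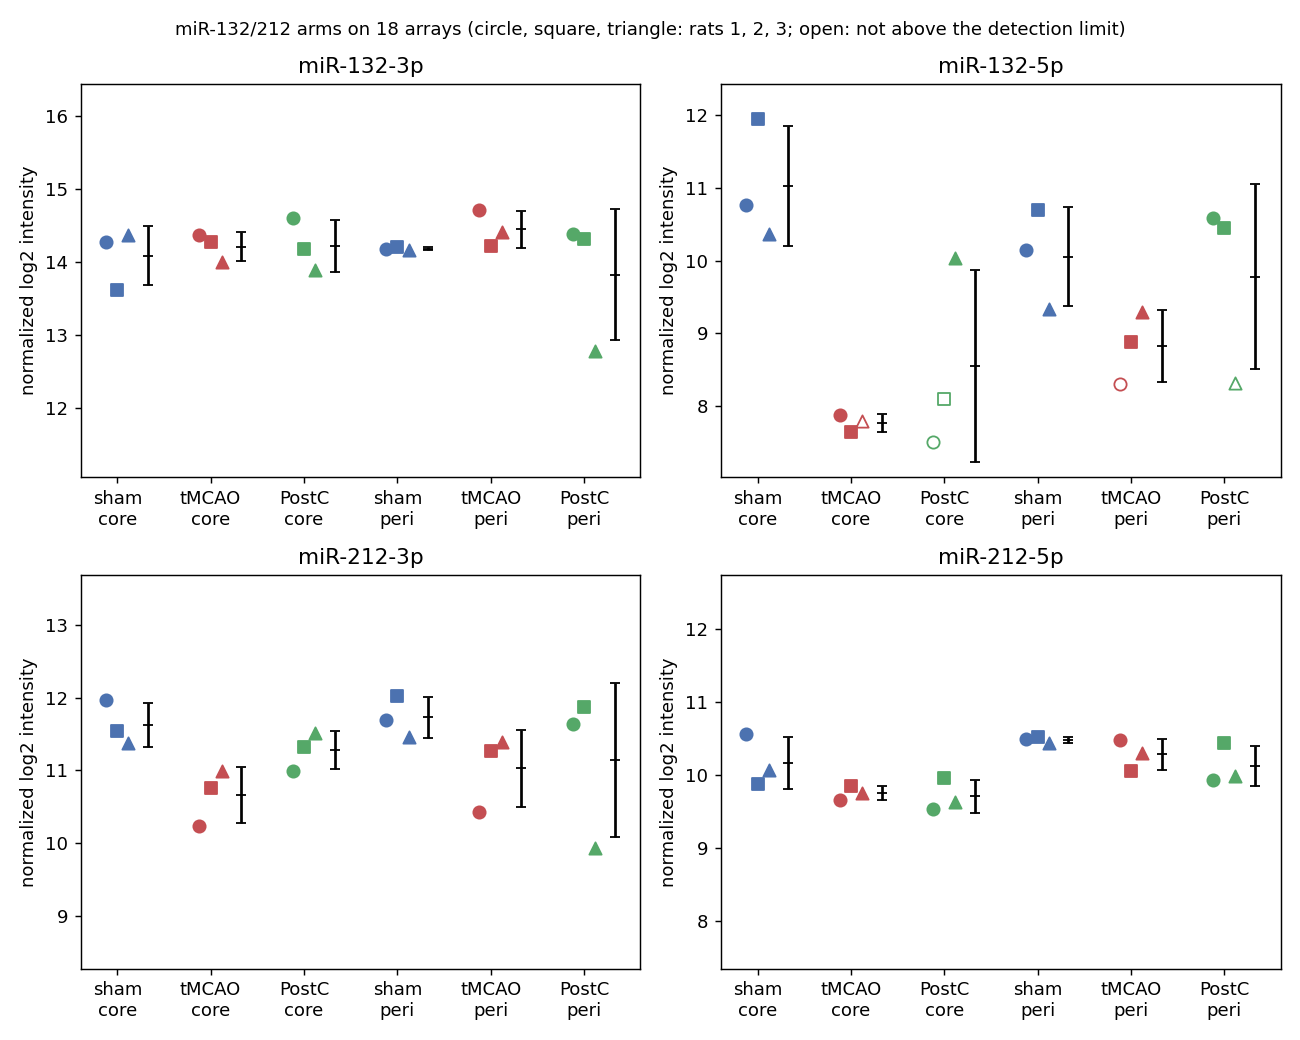
Normalized log2 intensity of the 4 arms on each array (vertical axis) by condition and region (horizontal axis); circles, squares and triangles are rats 1, 2 and 3, open symbols lie at or under the array's detection limit, and black bars show mean ± SD (n = 3). All panels span the same range; miR-132-5p is spread from 7.52 to 11.94, and in the panel of miR-132-3p the peri array of PostC rat 3 stands lowest at 12.79.

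After tMCAO the passenger arm miR-132-5p was lower than in sham-operated rats, 4.71-fold in the mean of both regions and 9.49-fold in core. Its probe was above the detection limit on 4 of 6 tMCAO arrays, so the sizes of these folds are uncertain. Neither fall was called with the methods' t-test. The guide arm of the same hairpin, miR-132-3p, differed from sham by 0.19 on the log2 scale in the mean of both regions. The arm miR-212-3p was 1.77-fold lower and miR-212-5p 1.24-fold lower in the mean of both regions, and neither passed the threshold. The question addressed here is which cluster arms differ in ischemic tissue.

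In sham core, miR-132-5p had levels of 10.76, 11.94 and 10.37 in rats 1, 2 and 3. In tMCAO core the levels were 7.89, 7.64 and 7.80. All tMCAO core arrays lay under all sham core arrays, and their spread was narrow (SD 0.12) against that of sham (SD 0.82). Of the miRNAs tested in core, 41.0% had groups without overlap in either direction, and 24.2% had them with tMCAO lower. In peri, the sham rats had 10.14, 10.70 and 9.33 and the tMCAO rats 8.31, 8.89 and 9.30. Here too the groups did not overlap (31.6% of all miRNAs tested in peri, and 16.0% with tMCAO lower). However, the highest tMCAO array, at 9.30, came close to the lowest sham array, at 9.33.

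Averaged over the regions of each rat, miR-132-5p was at 10.54 ± 0.74 in sham and 8.30 ± 0.23 in tMCAO (SD, n = 3). The log2 change was -2.24 (SE 0.34, 95% CI -2.99 to -1.48), with an adjusted p of 0.00555 in limma with Benjamini-Hochberg adjustment. This was the only arm called in the rat means, 1 of 4, in a comparison where 11.8% of all miRNAs tested were called and 7.33% were called lower. In core the log2 change was -3.25 (SE 0.65, CI -4.70 to -1.79, adjusted p = 0.0318 by limma), again the only arm called, with 3.38% of all miRNAs called. In peri it was -1.23 (SE 0.58, CI -2.47 to 0.02, adjusted p = 0.324 by limma), with no arm called and 0.564% of all miRNAs called.

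The call in the rat means was kept whichever rat was left out, with log2 changes from -2.58 to -1.85 and adjusted p from 0.00432 to 0.0369 by limma. The call in core was lost whenever a sham or a tMCAO rat was left out, with log2 changes from -3.57 to -2.79 and adjusted p from 0.0516 to 0.132. Without sham rat 2, the highest of the sham core arrays, it was -2.79 (adjusted p = 0.0983 by limma). It was also lost with the deposited normalized intensities, where the log2 change in core was -3.96 (adjusted p = 0.118 by limma), and with plain background subtraction, at -3.83 (adjusted p = 0.204 by limma). With the methods' t-test in place of limma's, the adjusted p of miR-132-5p was 0.0855 for the rat means and 0.0716 for core, so that neither was called.

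The fall was also visible in the deposited spot intensities before any correction. The median spot of miR-132-5p was between 807 and 3945 units on the 6 sham arrays, and between 73.7 and 425 units on the 6 tMCAO arrays. On tMCAO arrays the probe was close to background. It exceeded the detection limit on 4 of 6, the exceptions being the core array of rat 3 and the peri array of rat 1, so the size of its fall is less certain than its direction. The limits were 77.4 to 346 units on the tMCAO arrays and 49.1 to 171 units on the sham arrays. In the authors' normalized table, the sham core arrays averaged 2036 ± 1188 units and the tMCAO core arrays 123 ± 42.3 (SD, n = 3).

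**Figure D2:**
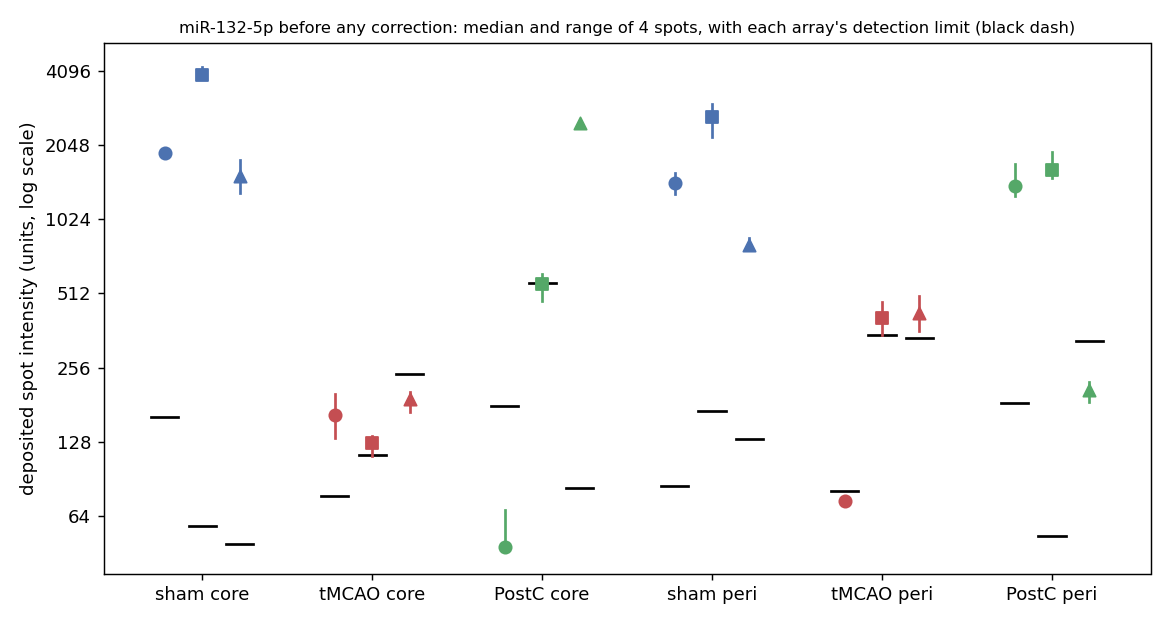
Deposited spot intensity of miR-132-5p in scanner units (vertical axis, log scale) on each array, by condition and region (horizontal axis). Symbols are the median of 4 spots, lines their range, and circles, squares and triangles rats 1, 2 and 3; black dashes are each array's detection limit. All 6 sham arrays, from 807 units upward, lie above all 6 tMCAO arrays, which end at 425 units.

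The guide arm miR-132-3p, which carries most of the hairpin's known target repression in neurons, had levels of 14.28, 13.62 and 14.37 in sham core and 14.37, 14.27 and 14.00 in tMCAO core. In peri they were 14.18, 14.21 and 14.17 in sham and 14.71, 14.22 and 14.42 in tMCAO. The core groups overlapped, with sham rat 2 lowest, and in peri the tMCAO arrays lay just above the sham arrays, groups without overlap being found for 31.6% of all miRNAs there. The log2 change was 0.19 in the rat means (SE 0.26, CI -0.38 to 0.77, adjusted p = 0.636 by limma), 0.12 in core (CI -0.43 to 0.67) and 0.26 in peri (CI -0.48 to 1.00). The interval in peri leaves room for a change of up to 1.00 upward. Its direction was not stable: with plain background subtraction the change was -0.21 in the rat means and -0.34 in core, without sham rat 2 it was -0.11 in core, and with median scaling it was -0.35 in peri. The probe was bright, with single spots from 6507 to 32832 units where the brightest spot of an array was 48599 to 61310, so the scanner's ceiling was not reached.

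For miR-212-3p, which shares the seed of miR-132-3p, the levels in sham core were 11.96, 11.54 and 11.37 and those in tMCAO core 10.24, 10.76 and 11.00. In peri they were 11.69, 12.02 and 11.47 in sham and 10.43, 11.27 and 11.39 in tMCAO. In both regions every tMCAO array was lower than every sham array, as for 24.2% of all miRNAs in core and 16.0% in peri. The log2 change was -0.83 in the rat means (SE 0.30, CI -1.50 to -0.16, adjusted p = 0.0849 by limma), -0.96 in core (CI -1.70 to -0.21, adjusted p = 0.142) and -0.70 in peri (CI -1.73 to 0.33, adjusted p = 0.507). In the rat means, 41.0% of all 532 miRNAs had groups that did not overlap, in either direction, and 23.3% did so with tMCAO lower. With median scaling, under which the median of all miRNAs itself moved to -0.20 in the rat means and -0.41 in peri, the change of miR-212-3p was -1.36 in the rat means and -1.73 in peri, and both passed the threshold (adjusted p = 0.0253 and 0.0372 by limma). In that setting 125 of 532 miRNAs were called in the rat means, 99 of them lower, and 126 in peri, 109 of them lower.

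The partner arm miR-212-5p varied least. Its levels were 10.56, 9.88 and 10.07 in sham core and 9.66, 9.86 and 9.76 in tMCAO core, and 10.49, 10.52 and 10.44 in sham peri against 10.49, 10.06 and 10.31 in tMCAO peri. The core groups just missed each other, tMCAO rat 2 being close under sham rat 2, where 41.0% of all miRNAs had groups without overlap, and the peri groups overlapped. Its log2 change was -0.31 in the rat means (SE 0.23, CI -0.81 to 0.20, adjusted p = 0.365 by limma), -0.41 in core (CI -1.20 to 0.37) and -0.20 in peri (CI -0.90 to 0.50). Median scaling gave -1.37 in peri (adjusted p = 0.0344 by limma), again among 126 miRNAs called, and plain subtraction gave 0.01 there.

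**Figure D3:**
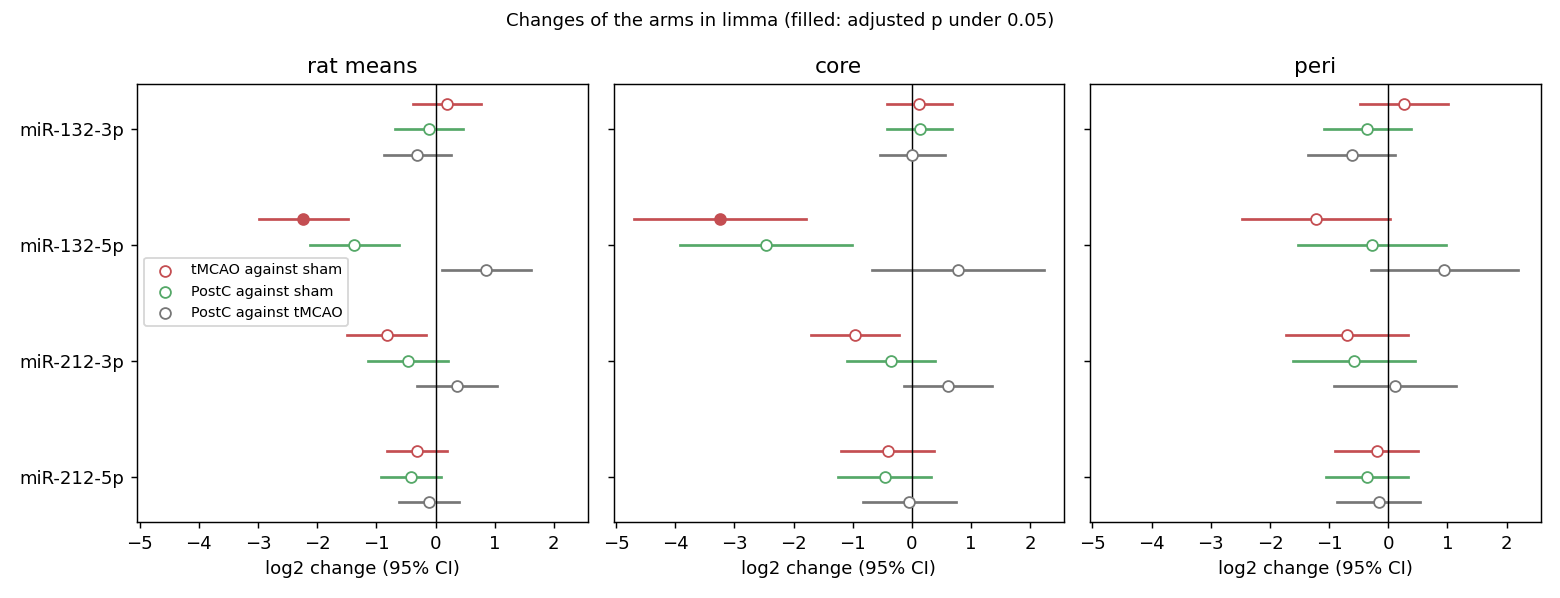
Log2 change of each arm (horizontal axis, with 95% CI) for tMCAO against sham, PostC against sham and PostC against tMCAO, in the mean of both regions of a rat, core and peri (panels; n = 3 rats a group). Filled points have an adjusted p under 0.05 in limma; these are miR-132-5p in tMCAO against sham, at -2.24 in the rat means and -3.25 in core.

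**Figure D4:**
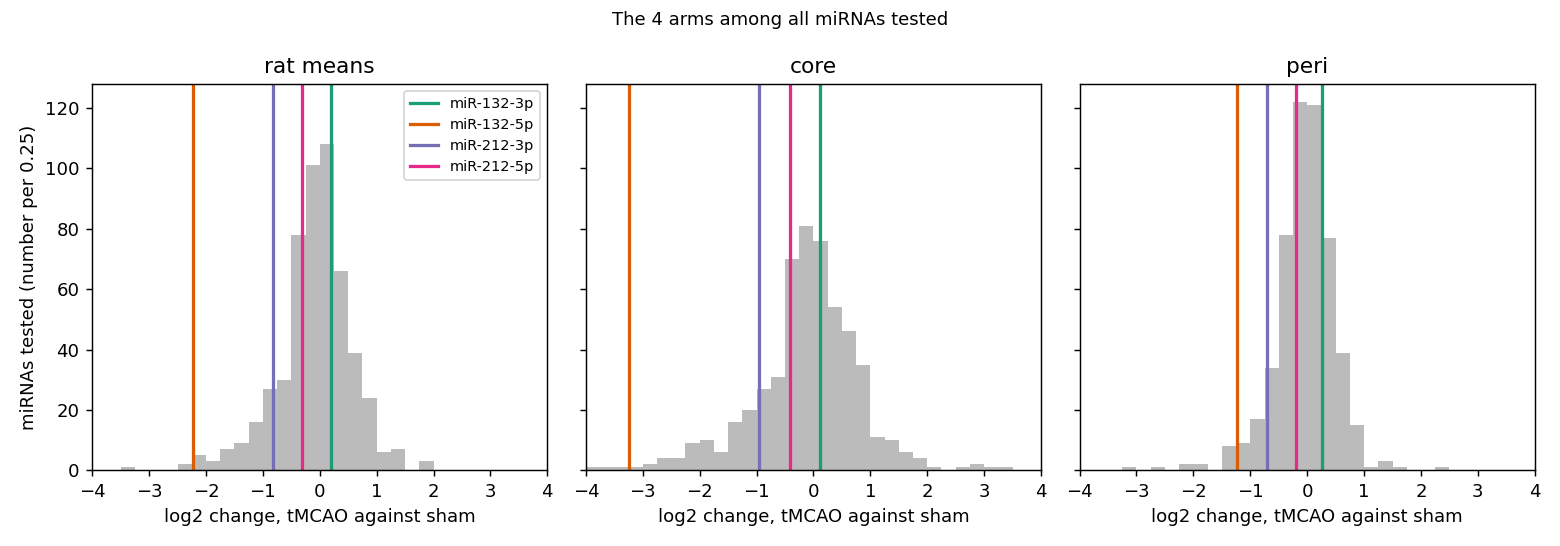
Number of miRNAs tested (vertical axis, 532 in each panel) by log2 change of tMCAO against sham (horizontal axis, bins of 0.25), in the rat means, core and peri, with the 4 arms as coloured lines. The line of miR-132-5p lies in the lower tail of each panel, at -2.24, -3.25 and -1.23, and the line of miR-132-3p near the middle, at 0.19, 0.12 and 0.26.

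The arms of a hairpin come from the same precursor, so their difference (3p minus 5p on the log2 scale) was followed within each array; probe brightness cancels when this difference is compared between groups. For miR-132 it was 2.43 higher in tMCAO than in sham in the rat means (SE 0.58), 3.37 higher in core (SE 0.72) and 1.49 higher in peri (SE 0.55). In each of the 3 the tMCAO rats all lay above the sham rats, at an exact permutation p of 0.1 (two-sided). This is the smallest p that 3 against 3 rats allow, and it was 0.225 after adjustment over the 18 differences tested. The rat means average core and peri, so the 3 are not separate results. Other hairpins were not read. Of single miRNAs, 41.0% in the rat means and in core and 31.6% in peri had groups without overlap. With changes of 0.19, 0.12 and 0.26 in miR-132-3p, the shift is mostly the fall of miR-132-5p. Without sham rat 2 the shift was 1.93 for the rat means, 2.67 for core and 1.18 for peri, and the groups still did not overlap. These shifts include 2 of 6 tMCAO arrays on which miR-132-5p was at or under the limit, so their sizes are uncertain. For miR-212 the shift ran the other way and was smaller, -0.52 in the rat means (SE 0.31, exact permutation p = 0.1), -0.54 in core (SE 0.22, exact permutation p = 0.1) and -0.50 in peri (SE 0.43, exact permutation p = 0.5), the peri groups overlapping. A difference between hairpins in this shift was not tested.

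**Figure D5:**
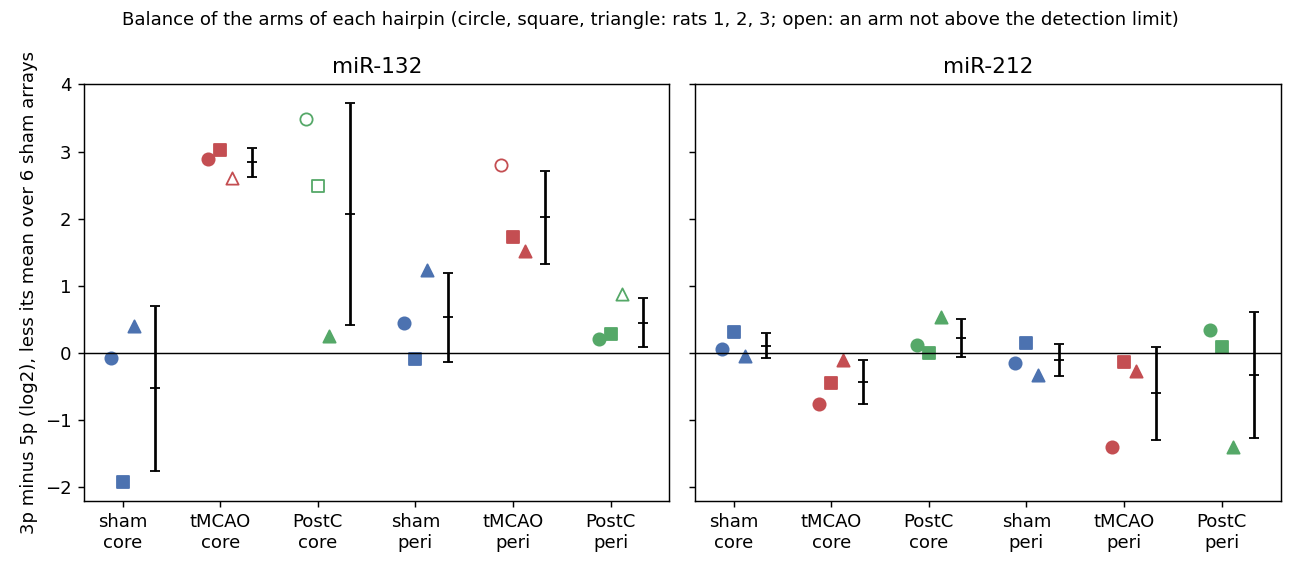
Difference between the 3p and the 5p arm on each array in log2 units (vertical axis), less its mean over the 6 sham arrays, for miR-132 and miR-212, by condition and region (horizontal axis); circles, squares and triangles are rats 1, 2 and 3, open symbols mark arrays with an arm at or under the detection limit, and black bars show mean ± SD (n = 3). For miR-132 the 4 tMCAO arrays with both arms above the limit lie 1.52 to 3.03 above the sham mean; the heights of open symbols are not measured sizes.

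In PostC rats no cluster arm passed the threshold against sham or against tMCAO. The passenger arm miR-132-5p was 2.59-fold lower than in sham in the rat means, and 5.55-fold lower in core. Against tMCAO it was 1.82-fold higher in the rat means. The probe was above the detection limit on 1 of 3 PostC core arrays and 2 of 3 PostC peri arrays, so the sizes of these differences are uncertain.

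In PostC core, miR-132-5p had levels of 7.52, 8.10 and 10.04 in rats 1, 2 and 3, and in PostC peri 10.58, 10.44 and 8.32. Rats 1 and 2 were low in core and high in peri, and rat 3 was high in core and low in peri. The probe was at or under the detection limit on the 3 low arrays of these 6. The opposite order in rat 3 gave SDs of 1.32 in core and 1.27 in peri, while the rat means were close, at 9.05, 9.27 and 9.18 (SD 0.11). Core minus peri in rats 1, 2 and 3 was -0.63, -0.55 and 1.57 for miR-212-3p, and 0.22, -0.14 and 1.10 for miR-132-3p. For miR-212-5p it was -0.41, -0.47 and -0.37. The miRNAs listed for leukocytes had a higher summed level in core than in peri in all 3 PostC rats, with 13.02 in core and 11.63 in peri of rat 3. Of all single miRNAs, 21.2% had one sign in all 3 PostC rats. Whether the samples of this rat were exchanged was not tested.

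Against sham the log2 change of miR-132-5p was -1.37 in the rat means (SE 0.34, CI -2.13 to -0.62, adjusted p = 0.166 by limma), with no overlap between the groups, as for 18.2% of all miRNAs tested. In core it was -2.47 (SE 0.65, CI -3.92 to -1.02, adjusted p = 0.116 by limma), likewise without overlap (22.0% of all), and in peri -0.28 (CI -1.52 to 0.97). Of all miRNAs, 0.188% were called in the rat means and none in core or peri. At an unadjusted p under 0.05, limma listed 75 miRNAs for the rat means, 90 for core and 14 for peri. Without PostC rat 3, both remaining PostC core arrays were at or under the detection limit. Sham core was then at least 6.90-fold higher, with the dim arrays set no lower than the lowest miRNA above the limit on the same array, and the adjusted p was 0.0726 by limma. In peri the change was 0.46 without this rat and 0.044 without sham rat 2.

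Between PostC and tMCAO, miR-132-5p differed by 0.86 in the rat means (SE 0.34, CI 0.11 to 1.62, adjusted p = 0.211 by limma). All PostC rats lay above all tMCAO rats. Of all miRNAs, 26.1% had groups without overlap in either direction and 7.52% had them with PostC lower, and 5.64% were called. Fitted on these groups alone, the adjusted p of miR-132-5p was 0.0484, where 35 of 532 miRNAs were called. Without sham rat 2 it was 0.0451, where 46 were called (limma). In peri the difference was 0.95 (CI -0.30 to 2.20, adjusted p = 0.782) with all rats and 1.68 (adjusted p = 0.0293) without PostC rat 3, by limma; without that rat 59 of 532 miRNAs were called in peri, 47 of them higher. In core it was 0.77 with all rats; without PostC rat 3, both remaining PostC arrays being at or under the limit, it had no measured size. Of all miRNAs, limma called 2.26% in core and 0% in peri for this comparison, and 71 and 31 at an unadjusted p under 0.05.

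The guide arm miR-132-3p had levels of 14.60, 14.18 and 13.89 in PostC core and 14.38, 14.32 and 12.79 in PostC peri. The peri array of rat 3 was the lowest of the 18 and the other 5 lay within the range of the sham and tMCAO arrays. Its log2 change against sham was -0.11 in the rat means (CI -0.68 to 0.46, adjusted p = 0.893 by limma), 0.13 in core and -0.36 in peri. Without PostC rat 3 it was 0.23 in the rat means and 0.16 in peri, and without sham rat 2 it was -0.10 in core.

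The same peri array was lowest for miR-212-3p. Its levels were 11.00, 11.32 and 11.51 in PostC core and 11.63, 11.87 and 9.94 in PostC peri. The log2 change against sham was -0.46 in the rat means (CI -1.13 to 0.20, adjusted p = 0.532 by limma), -0.35 in core and -0.58 in peri, where it was 0.02 without PostC rat 3. Leaving out 1 rat at a time, it ran from -0.66 to -0.22 in the rat means and from -0.47 to -0.18 in core. For miR-212-5p the peri array of PostC rat 3 did not stand out: the levels were 9.53, 9.97 and 9.63 in core and 9.94, 10.44 and 9.99 in peri. Its changes against sham were -0.41 in the rat means (CI -0.92 to 0.10, adjusted p = 0.450 by limma), -0.46 in core and -0.36 in peri.

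Against tMCAO, the other arms differed in the rat means by -0.31 for miR-132-3p (CI -0.88 to 0.27; 0.039 without PostC rat 3), 0.36 for miR-212-3p (CI -0.31 to 1.03) and -0.10 for miR-212-5p (CI -0.61 to 0.40). Since PostC and tMCAO were set against the same sham rats, these comparisons are not independent of each other.

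Within a rat, the normalized level of miR-132-5p in core minus that in peri was 0.62, 1.24 and 1.03 in sham, -0.42, -1.24 and -1.50 in tMCAO, and -3.06, -2.34 and 1.72 in PostC. All 6 sham arrays behind these differences were above the detection limit, and the sham rats were higher in core. In tMCAO rat 2 both arrays were above the limit and peri was higher, and in rat 3 the core array, the lower one, was under it. In tMCAO rat 1 the peri array was under the limit and the core array above it, so the sign in this rat was not measured. In each PostC rat the lower array was at or under the limit, so the sizes there are not measured, and rat 3 ran against the others. Of all miRNAs tested, 42.1% had one sign in all 3 sham rats and 43.6% in all 3 tMCAO rats, and for 28.9% the differences of the sham and tMCAO rats did not overlap. None of the differences passed the threshold in limma: 0.97 in sham (CI -0.72 to 2.65, adjusted p = 0.972), -1.06 in tMCAO (CI -2.74 to 0.63, adjusted p = 0.699) and -1.23 in PostC (CI -2.91 to 0.45, adjusted p = 0.559). Without PostC rat 3, with no PostC core array left above the limit, PostC peri was at least 4.85-fold higher than PostC core (adjusted p = 0.0534 by limma). With another rat left out instead, the log2 difference in PostC shrank to as little as -0.31, and the adjusted p rose to as much as 0.842 by limma. Over all miRNAs limma called 0% in sham, 0.940% in tMCAO and 0% in PostC, and at an unadjusted p under 0.05 it listed 29, 58 and 52 miRNAs.

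For the remaining arms, no difference between core and peri passed the threshold in any condition. The arm miR-212-3p was lower in core in all 3 tMCAO rats, by a mean log2 difference of -0.36 (adjusted p = 0.878 by limma), where 43.6% of all miRNAs had one sign in all 3 rats. In PostC it was lower in core in rats 1 and 2 and higher in core in rat 3. The arm miR-212-5p was lower in core in all 3 tMCAO rats and all 3 PostC rats, and in 2 of 3 sham rats; in PostC, 21.2% of all miRNAs had one sign in all 3 rats.

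Ordered by mean level, miR-132-5p ran from sham core (11.02) through sham peri (10.06), PostC peri (9.78), tMCAO peri (8.83) and PostC core (8.55) to tMCAO core (7.78). Neighbours in this order overlapped in every case. The probe was above the detection limit on 2 of 3 arrays in PostC peri, tMCAO peri and tMCAO core. In PostC core it was above the limit on 1 of 3, so the places of the groups under sham are uncertain. For miR-132-3p all 6 means lay between 13.83 and 14.45, and neighbours overlapped. For miR-212-3p the sham groups came first, at 11.73 in peri and 11.62 in core, and tMCAO core came last at 10.67, again with overlapping neighbours. For miR-212-5p sham peri was first at 10.49 and PostC core last at 9.71; PostC peri (10.13) and tMCAO core (9.76) were the one pair of neighbours that did not overlap.

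Likeness to other miRNAs was measured as the root-mean-square difference of the mean-centred log2 levels over the 18 arrays, as a description with no test. Closest to miR-132-5p were miR-181b-5p (0.53), miR-181d-5p (0.55) and miR-181c-5p (0.59), where the median over all miRNAs tested was 1.34. Its own partner miR-132-3p was at 1.40, near that median, and miR-212-3p at 0.95. The measure is unscaled and miR-132-5p itself had an SD of 1.33, so a miRNA that hardly varied would lie near that value. Closest to miR-132-3p were miR-26a-5p (0.28), miR-128-3p (0.32) and miR-466b-3p (0.35), with a median of 0.62. For miR-212-3p they were miR-139-5p (0.33), miR-323-3p (0.35) and miR-384-5p (0.41), and for miR-212-5p miR-29b-5p (0.23), miR-532-5p (0.24) and miR-330-5p (0.25). Of these last 3, miR-29b-5p was above the limit on 13 arrays, miR-532-5p on 9 and miR-330-5p on 5, so their likeness to miR-212-5p is partly that of values near background. The miR-181 members were above it on 15 to 17 arrays and miR-132-5p itself on 13.

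Other miRNAs known to respond to neuronal activity, 12 in all, were read from the same fit, and 11 of them were tested. In the rat means of tMCAO against sham, 1 rose, 0 fell and 10 did not pass the threshold, where 11.8% of all miRNAs were called and 4.51% were called higher. The list's median log2 change was 0.02, beside -0.02 over all miRNAs tested. The one that rose was miR-329-3p, of the large miRNA cluster that also holds miR-134, at a log2 change of 1.00 (adjusted p = 0.0337 by limma). For miR-134-5p, which limits the size of dendritic spines, the change was 0.47 (adjusted p = 0.206 by limma), and for miR-485-5p of the same cluster it was 1.00 (adjusted p = 0.0583 by limma). The levels of miR-381-3p and miR-219a-5p were lower in tMCAO, without passing (adjusted p = 0.0583 and 0.0707 by limma), and their changes have no firm size, since the probes were above the limit on 1 and 0 of 6 tMCAO arrays. Apart from the rat means of tMCAO against sham, 0 of the 11 passed for tMCAO against sham or for PostC against either group, where between 0% and 5.64% of all miRNAs were called.

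The tissue samples were bulk, so fewer cells of a type and less of a miRNA per cell cannot be told apart. Of the 8 miRNAs listed for neurons, 4 fell in the rat means of tMCAO against sham and 4 did not pass (7.33% of all miRNAs were called lower), with a median of -0.82; the 4 were miR-218a-5p (-2.23), miR-137-3p (-1.61), miR-153-3p (-1.35) and miR-9a-5p (-1.20). Of the 4 that did not pass, miR-9a-3p was at -0.44 and the abundant miR-124-3p at -0.01 (adjusted p = 0.961 by limma). The others were higher in tMCAO, miR-128-3p by 0.44 (adjusted p = 0.0668 by limma) and miR-138-5p by 0.06. The list's summed level on the log2 scale was 16.57 to 16.86 in sham core, 16.00 to 16.29 in tMCAO core and 16.29 to 16.57 in PostC core, and in peri 16.38 to 16.76, 16.50 to 16.75 and 16.40 to 16.78.

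Of the 6 miRNAs listed for leukocytes, 5 were tested and 2 rose in the rat means and in core, miR-150-5p and miR-155-5p; of all miRNAs, 4.51% were called higher for the rat means and 1.69% for core. The list's median in core, 1.35 beside -0.055 over all miRNAs, is the value of miR-223-3p, which was above the limit on 4 of 18 arrays, so its size is uncertain. The probe of miR-150-5p was above the limit on all 18 arrays, but that of miR-155-5p on 0 of 6 sham, 2 of 6 tMCAO and 1 of 6 PostC arrays, so it was tested only through the groups where it was high. The change of miR-142-5p, above the limit on 5 arrays, was -0.46 in core (adjusted p = 0.401 by limma). Their summed level was 11.62 to 11.95 in sham core, 12.88 to 13.58 in tMCAO core and 12.53 to 13.02 in PostC core; in peri it was 11.55 to 11.78, 11.73 to 12.18 and 11.63 to 12.15. The defining miR-142-3p was above the limit on 1 of 18 arrays. The lists for oligodendrocytes (3 of 3 tested) and endothelium (2 of 2 tested) had no member past the threshold, with summed levels in core of 12.06 to 13.99 in sham and 11.64 to 12.30 in tMCAO for the former, and 13.03 to 13.93 and 11.87 to 12.85 for the latter. For red blood cells, 2 of 3 were tested and miR-486, above the limit on 9 arrays, rose in the rat means, while miR-451-5p, above it on all 18, had a change of 0.14 there (adjusted p = 0.809 by limma). In core the summed levels of neurons, leukocytes and endothelium did not overlap between sham and tMCAO, and those of oligodendrocytes and red blood cells did. Of all single miRNAs tested in core, 41.0% had groups without overlap. Each sum adds probes of unlike brightness, so its brightest members weigh most. The part of any of these cell types in the fall of miR-132-5p in core was not tested. Of the list for tissues outside the brain, miR-122-5p was above the limit on 1 array, miR-1-3p on 9, miR-206-3p on 11 and miR-133a-3p on 15; miR-1-3p, above it on all 6 sham arrays and on 0 of 6 tMCAO arrays, was lower in tMCAO in the rat means (adjusted p = 0.0103 by limma).

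The change of a miRNA also moved with its GC content, with a Spearman correlation over the 532 miRNAs of 0.34 in the rat means and 0.39 in core for tMCAO against sham. The GC content was 45.5% in miR-132-5p, 50% in miR-132-3p and miR-212-5p, 54.5% in miR-212-3p, and 50% in the median miRNA tested. After a linear trend with GC content was removed from each array, the log2 change of miR-132-5p was -2.15 in the rat means (adjusted p = 0.00635 by limma) and -3.10 in core (adjusted p = 0.0302 by limma).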

How the data were processed

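MicroRNA levels were measured on 18 single-colour (Cy5) µParaflo arrays. The authors deposited each spot's median pixel intensity, uncorrected, and a second table of intensity values that were background-subtracted and normalized by locally weighted regression. From the spot values, background was corrected with normexp (offset 50), log2 values were normalized by cyclic loess with control spots at weight 0, and the 4 spots of a probe were averaged. An array's detection limit was the median of its 612 empty spots plus 3 scaled median absolute deviations.

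All 532 miRNAs detected on at least 3 arrays were fitted with limma 3.58.1 in R 4.3.3 (variance trend, Benjamini-Hochberg adjustment at 0.05), with the rat as replicate and 15 comparisons; the fit was tested on simulated data. Loess assumes that rises and falls balance, so each change is one against the remaining miRNAs. The number of arrays limits the precision. Differences between arms were compared with exact permutation tests. Named miRNAs are the 4 arms, the 3 closest profiles to each, and the lists, which are from general knowledge. The members and lists were chosen with earlier results of these data known. The alternatives were other background corrections, normalizations, filters, variance models and tests, the deposited normalized table with a floor of 50, a GC correction, the replicate number as a block, and leaving out each rat. Figures were drawn with matplotlib 3.10.9 in Python 3.11.15.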

Additional observations from a re-analysis of the deposited data

Results flagged for a closer look

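For miR-132-5p, the normalized level was higher in core than in peri in every sham rat and lower in every tMCAO rat. In tMCAO rat 1 this sign was not measured, since the peri array, with the higher normalized level, was under the detection limit and the core array above it. The core change minus the peri change was -2.02 on the log2 scale (SE 1.05), with an unadjusted p of 0.087 and an adjusted p of 0.612 in limma with Benjamini-Hochberg adjustment, so the difference between regions did not pass the threshold. Over all miRNAs limma called 0% for this difference, and at an unadjusted p under 0.05 it listed 46. The core array of tMCAO rat 3 was also under the limit.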

How the results depend on the processing

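Of the 4 arms, 1 passed the threshold in tMCAO against sham in the rat means and 1 in core, both times miR-132-5p, and 0 in every other comparison. In core the number was 0 with plain background subtraction, the deposited normalized intensities, detection required on all arrays (where miR-132-5p was not tested), and the methods' t-test (adjusted p = 0.0716 for miR-132-5p). In the rat means it was 0 with detection on all arrays and with the methods' t-test (adjusted p = 0.0855), and 2 with median scaling, which also gave 3 in peri; in that setting 125 and 126 of all 532 miRNAs were called. With only the groups compared in the fit, PostC against tMCAO in the rat means gave 1, among 35 miRNAs called. Leaving out 1 rat at a time, the number ran from 0 to 1 in tMCAO against sham in core, in PostC against tMCAO in the rat means and in peri, and for the core change minus the peri change of PostC against sham, where miR-132-5p was at -3.67 (adjusted p = 0.0373 by limma) without PostC rat 3, a value that rests on PostC core arrays at or under the detection limit.

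The replicate numbers of different conditions name different rats and did not pair them: correlations of same-numbered rats ran from -0.405 to 0.227 in the rat means. With the replicate number as a block, 1 arm passed in the rat means of tMCAO against sham (miR-132-5p, adjusted p = 0.0115 by limma) and 0 in core (adjusted p = 0.0836); no other call of an arm changed under this pairing.

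Changes that were not called reversed in sign as follows. With plain background subtraction, miR-132-3p was at -0.21, -0.34 and -0.073 in tMCAO against sham (rat means, core, peri) and at -0.41 in PostC against sham in core, miR-212-5p at 0.01 in tMCAO against sham in peri, and miR-132-5p at -0.11 in PostC against tMCAO in core, where the 3p minus 5p difference of miR-132 was 0.038. With median scaling, miR-212-5p was at 0.24 in PostC against tMCAO in the rat means, miR-132-3p at -0.35 in tMCAO against sham in peri, and the 3p minus 5p difference of miR-132 at 0.16 in PostC against sham in peri, where the deposited intensities gave 0.17.

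Leaving out 1 rat at a time, miR-132-3p ran from -0.35 to 0.23 in PostC against sham in the rat means, from -0.10 to 0.30 there in core and from -0.63 to 0.16 in peri, from -0.54 to 0.039 in PostC against tMCAO in the rat means, and from -0.11 to 0.26 in tMCAO against sham in core. In PostC against sham in peri, miR-132-5p ran from -0.68 to 0.46 and miR-212-3p from -0.94 to 0.024. The core change minus the peri change of miR-132-5p in PostC against tMCAO ran from -1.65 to 0.74.

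Over all miRNAs the number called in tMCAO against sham was 63 for the rat means, 18 for core and 3 for peri, and under the alternatives it ran from 8 (without tMCAO rat 2) to 125 (median scaling), from 0 to 40 and from 0 to 126. In PostC against tMCAO it was 30 in the rat means, with a range of 3 to 46. The causes were not tested. Near-background signal of miR-132-5p on 5 of 18 arrays and 3 rats a group limit what can be detected.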
